A study of Mus musculus with 21 samples.

Results

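Along the autosomes of the mouse, 585 pairs of neighbouring differentially methylated regions (DMRs) had 1 region with more and 1 region with less MeDIP-seq signal in intestinal adenoma than in normal intestine. The deposited lists of merged DMRs, called between adenoma and normal tissue, were joined and ordered by chromosome and start, and each adjacent couple of 1 hypermethylated and 1 hypomethylated DMR with a gap under 10000 bp was kept. The pairs held 1135 of the 13980 DMRs, 567 hypermethylated and 568 hypomethylated, called hyper and hypo members here. The members were thus chosen by the measured direction of each DMR, so their difference between adenoma and normal tissue is given as a description with no test. Normal ileum came from 3 C57BL/6J mice of genotype Apc-+/+ (B6, samples B1 to B3) and from 3 C57BL/6J mice of genotype Apc-Min/+ (APCMin, samples N4 to N6). The 5 adenomas (Ad4, Ad4-1, Ad5, Ad6 and Ad7) were excised one by one from the ileum of 4 APCMin mice, Ad4 and Ad4-1 being tumours of the same mouse. All mice were males of 15 to 19 weeks, and every APCMin sample, normal or adenoma, carried the germline Apc-Min allele. These were bulk tissues, so a changed share of a cell type and a changed methylation per cell cannot be told apart, and the tissue labels were not checked against marker expression, which was not analysed here.

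In mammals DNA methylation sits almost entirely on the cytosine of CpG dinucleotides, where maintenance methyltransferases copy it at each division. Most CpG sites outside CpG islands are methylated, and loss of methylation over wide domains together with gain at selected islands is a long-known feature of intestinal tumours. The Apc gene encodes an inhibitor of Wnt signalling, and Apc-Min mice form many intestinal adenomas after losing the second copy. In MeDIP-seq an antibody against methylated cytosine pulls down DNA fragments that are then sequenced. The signal, given in rpm (reads in a window scaled to the number of mapped reads of the library), reflects both how many CpG sites a region holds and how many of them are methylated, and is no percentage of methylation. A hyper and a hypo member side by side therefore mark a place where this signal shifted in both directions over a few kilobases in the same samples.

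The central 300 bp of both members are shown for 4 pairs, 2 with a large contrast and 2 whose members touch, to show the bases and CpG sites on both sides of a pair. Sequences are from the plus strand of NCBIM37, the assembly also called mm9, with every CpG dinucleotide in capitals. In the Pdgfb pair, chr15:79830976-79831275 (hyper member) held 6 CpG sites and chr15:79832226-79832525 (hypo member) held 13. In the Gm16724 pair, chr17:71491101-71491400 (hyper) held 3 and chr17:71493851-71494150 (hypo) held 7. In the Tspan5 pair, chr3:138439851-138440150 (hyper) held 4 and chr3:138440476-138440775 (hypo) held 14. In the Rbm20 pair, chr19:53926851-53927150 (hyper) held 0 and chr19:53927351-53927650 (hypo) held 11. In all 4 of these pairs the central stretch of the hypo member held more CpG sites. That is no rule of the pairs: over whole members, the hyper member was denser in CpG in 235 of the 585 pairs and the hypo member in 310. Over the whole members of Tspan5 the density was nearly equal, at 2.4 and 2.53 sites per 100 bp.
Pdgfb hyper member: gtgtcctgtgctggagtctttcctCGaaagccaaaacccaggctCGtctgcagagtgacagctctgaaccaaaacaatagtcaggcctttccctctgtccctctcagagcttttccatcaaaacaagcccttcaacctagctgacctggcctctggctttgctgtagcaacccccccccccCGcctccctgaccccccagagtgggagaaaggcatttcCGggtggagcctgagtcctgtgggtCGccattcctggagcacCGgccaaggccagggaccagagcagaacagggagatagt
Pdgfb hypo member: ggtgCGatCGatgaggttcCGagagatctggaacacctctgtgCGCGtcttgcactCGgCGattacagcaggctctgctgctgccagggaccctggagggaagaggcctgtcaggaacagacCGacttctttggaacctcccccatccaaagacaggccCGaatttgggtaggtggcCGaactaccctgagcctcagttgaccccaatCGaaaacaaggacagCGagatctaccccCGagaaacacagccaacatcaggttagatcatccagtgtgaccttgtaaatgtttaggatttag
Gm16724 hyper member: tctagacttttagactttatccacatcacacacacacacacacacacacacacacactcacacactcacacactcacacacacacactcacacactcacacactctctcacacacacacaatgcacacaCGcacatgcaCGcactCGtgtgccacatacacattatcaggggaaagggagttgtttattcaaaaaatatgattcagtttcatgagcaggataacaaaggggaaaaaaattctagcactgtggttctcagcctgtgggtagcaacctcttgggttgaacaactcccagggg
Gm16724 hypo member: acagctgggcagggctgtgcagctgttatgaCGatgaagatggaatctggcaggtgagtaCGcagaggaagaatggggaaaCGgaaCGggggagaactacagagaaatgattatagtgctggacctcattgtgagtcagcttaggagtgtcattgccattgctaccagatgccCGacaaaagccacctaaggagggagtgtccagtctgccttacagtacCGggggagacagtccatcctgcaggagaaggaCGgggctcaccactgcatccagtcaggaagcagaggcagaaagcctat
Tspan5 hyper member: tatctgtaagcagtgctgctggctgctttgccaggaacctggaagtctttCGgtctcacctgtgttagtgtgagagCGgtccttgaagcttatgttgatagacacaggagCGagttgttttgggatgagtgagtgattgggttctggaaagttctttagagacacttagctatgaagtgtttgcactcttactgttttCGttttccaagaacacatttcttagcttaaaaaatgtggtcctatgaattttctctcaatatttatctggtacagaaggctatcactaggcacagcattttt
Tspan5 hypo member: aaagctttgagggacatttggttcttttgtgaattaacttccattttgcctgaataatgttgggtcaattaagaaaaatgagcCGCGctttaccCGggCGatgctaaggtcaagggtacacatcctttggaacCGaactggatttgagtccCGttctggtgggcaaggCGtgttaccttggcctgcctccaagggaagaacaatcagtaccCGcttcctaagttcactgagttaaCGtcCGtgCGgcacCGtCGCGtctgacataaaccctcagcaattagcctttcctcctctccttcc
Rbm20 hyper member: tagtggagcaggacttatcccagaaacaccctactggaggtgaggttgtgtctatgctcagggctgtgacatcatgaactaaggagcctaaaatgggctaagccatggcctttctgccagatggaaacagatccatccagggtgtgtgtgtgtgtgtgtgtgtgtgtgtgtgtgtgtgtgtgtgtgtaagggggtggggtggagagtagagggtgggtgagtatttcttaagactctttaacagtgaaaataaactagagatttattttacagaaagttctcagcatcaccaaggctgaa
Rbm20 hypo member: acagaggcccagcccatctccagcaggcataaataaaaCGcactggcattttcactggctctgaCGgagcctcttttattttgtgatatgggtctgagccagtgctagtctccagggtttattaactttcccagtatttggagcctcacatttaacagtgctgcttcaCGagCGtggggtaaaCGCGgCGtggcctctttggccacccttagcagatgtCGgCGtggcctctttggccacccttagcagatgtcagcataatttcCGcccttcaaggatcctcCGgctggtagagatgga

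Averaged over all 567 hyper members, normal samples had 0.318 ± 0.0172 rpm (SD, n = 6) and adenomas 0.488 ± 0.011 rpm (SD, n = 5). Averaged over the 568 hypo members, normal samples had 0.495 ± 0.0145 rpm and adenomas 0.299 ± 0.0149 rpm. The DMRs outside such pairs had like levels: their medians went from 0.242 rpm in normal tissue to 0.388 rpm in adenoma for hyper and from 0.398 to 0.234 rpm for hypo DMRs, beside 0.263 to 0.408 and 0.428 to 0.248 rpm for the members. Within pairs, the hypo member had the higher normal mean in 462 of 585 pairs and the hyper member had the higher adenoma mean in 458. Both held in 335 pairs (57.3%), in which the order of the 2 members was turned over between the tissues. In 127 pairs the hypo member stayed above its neighbour in both tissues, and in 123 pairs the hyper member did.

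**Figure D1:**
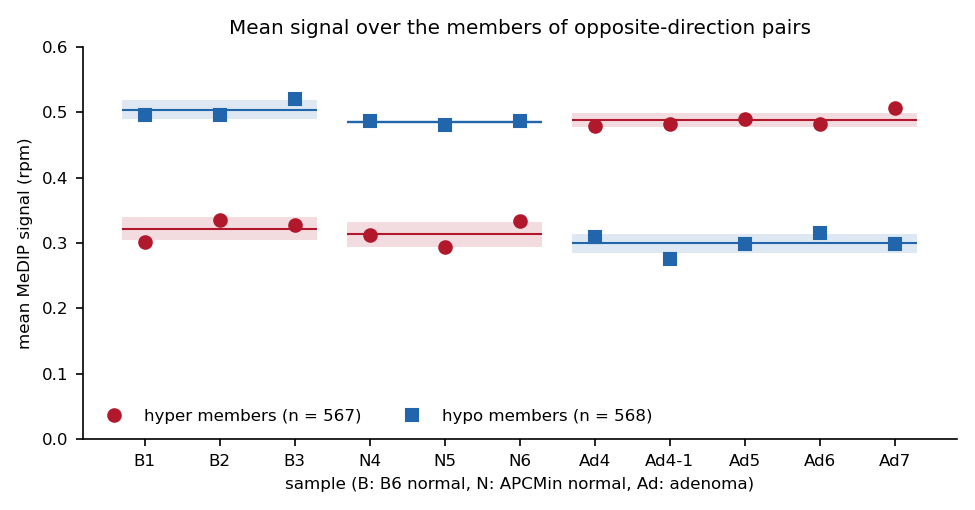
Mean MeDIP signal (rpm) over the 567 hyper members (circles) and the 568 hypo members (squares) in each of the 11 samples; lines are group means and bands 1 SD over samples. The hyper members lie between 0.479 and 0.506 rpm in adenomas and between 0.294 and 0.336 rpm in normal samples, and the hypo members between 0.276 and 0.315 rpm and between 0.481 and 0.521 rpm.

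In the plot of mean signal by sample no sample departed from its tissue. The members were listed by this difference in these same samples, so the plot is no check on the samples. For the hyper members the adenoma means ran from 0.479 (Ad4) to 0.506 rpm (Ad7), and for the hypo members from 0.276 (Ad4-1) to 0.315 rpm (Ad6). The median log2 ratio of adenoma to normal means, with 0.05 rpm added to both, was 0.54 over hyper members (range 0.33 to 1.23) and -0.64 over hypo members (range -1.4 to -0.37). The other autosomal DMRs had medians of 0.56 and -0.64. The difference of the 2 log2 ratios within a pair, called contrast here, had a median of 1.2 and ran from 0.76 to 2.19. Both members passed a ratio of group means of about 1.3, the limit in the methods of the study, in 584 pairs. In the 3 mice that gave both tissues, log2 ratios were taken within each mouse with 0.05 rpm added, and averaged (a replicate block). This mean passed that ratio in both members of 387 pairs, against 473 for the group means of the same 7 samples with no rpm added. The counts thus differ in the added rpm as well as in the block. Over all samples, 0.05 rpm added to the group means took the count from 584 to 497.

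Sample values did not always separate. Every adenoma lay above every normal sample in 249 hyper members (43.9%) and below in 308 hypo members (54.2%), and the same held for 44.5% of all hyper DMRs and 51.9% of all hypo DMRs, 49.2% of both lists together. These counts use the contrast that chose the members, so nothing is read from them. Complete separation in both members was found in 135 pairs (23.1%), in 1 member in 304 pairs and in neither in 146 pairs. Without N6 the first count was 209, and it lay between 159 and 209 over the 11 samples left out in turn. Leaving out a sample can only keep or raise it.

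The pairs with the largest contrast were taken among the 17 that separated in both members and reached 0.5 rpm in the higher tissue of each. First was a pair in an intron of Gm16724, a long intergenic non-coding RNA gene on chromosome 17 (71227418 to 71742624, plus strand). Its hyper member at chr17:71491001-71491500 had a lowest, median and highest value of 0.19, 0.355 and 0.42 rpm in normal tissue, against 0.57, 0.47, 0.88, 0.52 and 0.67 rpm in Ad4, Ad4-1, Ad5, Ad6 and Ad7. The hypo member, 2000 bp away at chr17:71493501-71494500, ran from 0.66 over 0.825 to 0.94 rpm in normal tissue, against 0.36, 0.37, 0.39, 0.44 and 0.37 rpm in the adenomas in the same order. Every adenoma was higher at the first region and lower at the second, with log2 ratios of 0.79 and -0.98. The adenomas had a mean of 0.386 ± 0.0321 rpm at the hypo member and of 0.622 ± 0.162 rpm at the hyper member (SD, n = 5).

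Asap3, which encodes a GTPase-activating protein for Arf proteins, held a pair 5250 bp apart in its introns on chromosome 4. At the hyper member (chr4:135774251-135775000) normal values ran from 0.23 over 0.325 to 0.43 rpm, and Ad4, Ad4-1, Ad5, Ad6 and Ad7 had 0.48, 0.51, 0.66, 0.45 and 0.83 rpm. At the hypo member (chr4:135780251-135780750) normal values ran from 0.42 over 0.605 to 0.85 rpm, and the adenomas had 0.41, 0.22, 0.35, 0.41 and 0.23 rpm. The 2 tissues did not overlap at either side, but at the hypo member the lowest normal value and the highest adenoma values were 0.01 rpm apart. The hyper member was the one with more CpG sites here, 21 against 11.

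Clmn, the gene of calmin, a membrane protein with an actin-binding domain, held the pair with 2 and 28 CpG sites in its members. The hyper member in an intron ran from 0.1 over 0.405 to 0.49 rpm in normal tissue and had 0.89, 0.54, 0.94, 0.71 and 0.51 rpm in Ad4, Ad4-1, Ad5, Ad6 and Ad7. The hypo member in the same gene (chr12:106073501-106074750) ran from 0.96 over 1.27 to 1.4 rpm and had 0.8, 0.62, 0.76, 0.91 and 0.88 rpm. The log2 ratios were 1.03 and -0.59. The 2 normal samples at 0.1 rpm in the hyper member were B1 and N5, 1 of each genotype. This hypo member stayed above its neighbour on average in adenoma, at 0.794 against 0.718 rpm.

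Pdgfb encodes the B chain of platelet-derived growth factor, a mitogen for mesenchymal cells, and its pair was the closest of the large-contrast pairs, 500 bp apart. Both members touched coding exon and intron on chromosome 15. At the hyper member (chr15:79830751-79831500) normal tissue ran from 0.22 over 0.295 to 0.38 rpm, and Ad4, Ad4-1, Ad5, Ad6 and Ad7 had 0.53, 0.53, 0.5, 0.57 and 0.49 rpm. At the hypo member (chr15:79832001-79832750) normal tissue ran from 1.34 over 1.44 to 1.68 rpm, and the adenomas had 0.98, 1.07, 1.07, 0.91 and 0.8 rpm. The adenomas thus lay close together on both sides, at 0.524 ± 0.0313 and 0.966 ± 0.115 rpm (SD, n = 5), with the 2 tissues apart. The order of the 2 members was kept: the hypo member was the higher one in both tissues.

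In Ano1, whose product is a calcium-activated chloride channel and a marker of interstitial cells of Cajal, the hypo member (chr7:151855001-151855750) covered a transcript start and a coding exon. Its normal values ran from 0.78 over 0.975 to 1.13 rpm, and Ad4, Ad4-1, Ad5, Ad6 and Ad7 had 0.56, 0.44, 0.3, 0.77 and 0.58 rpm. The intronic hyper member 4500 bp further into the gene (chr7:151850001-151850500) ran from 0.28 over 0.385 to 0.46 rpm and had 0.56, 0.49, 0.56, 0.63 and 0.47 rpm in the adenomas. Both sides missed overlap by 0.01 rpm.

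The other 3 large-contrast pairs lay at Tcf4, at Gm17608 and at the end of Vti1a. Tcf4, the gene of a basic helix-loop-helix factor that is not the Wnt effector of that alias, held both members in introns 9250 bp apart, with log2 ratios of 0.58 and -0.81. In the pair at Gm17608, a long non-coding RNA gene on chromosome 3, the log2 ratios were 0.8 and -0.7, and only the hyper member lay in the gene. The nearest protein-coding start there was that of Bcl9, a Wnt co-activator gene, with the hyper member at position -66981 bp relative to it. In the pair at Vti1a, a gene of a vesicle SNARE protein, the hypo member lay in the 3' end of the gene and the hyper member beyond it, with log2 ratios of -0.64 and 0.57. The nearest protein-coding start was that of Tcf7l2, the Wnt effector, with the hyper member at position -113675 bp relative to it. All 3 pairs were among the 335 in which the 2 members changed order.

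**Figure D2:**
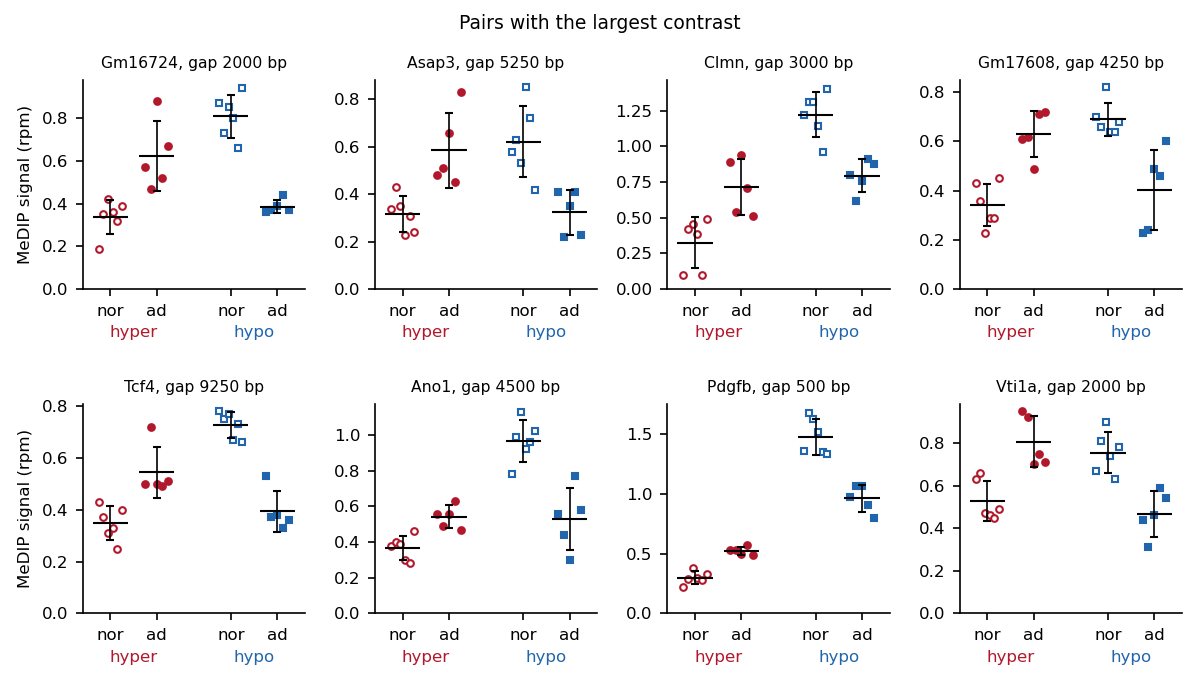
MeDIP signal (rpm) of both members in each sample for the 8 pairs of largest contrast; open symbols are the 6 normal samples (nor), filled symbols the 5 adenomas (ad), lines the mean and bars 1 SD. In each panel the adenomas lie above the normal samples at the hyper member and below them at the hypo member, and in the Pdgfb panel the hypo member is the higher one in both tissues.

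Distances within pairs were counted from the end of 1 member to the start of the next. The median gap was 4750 bp (quartiles 2250 and 7000 bp), and the hyper member came first on the chromosome in 302 pairs. The 1179 adjacent couples of equal direction under the same limit, 291 hyper and 888 hypo, had a median gap of 3500 bp. A gap under 1000 bp was found in 55 opposite pairs (9.4%) and in 238 equal couples (20.2%). The counts of opposite pairs varied between 51 and 68 per kilobase of gap with no crowding near 0, whereas the hypo couples went from 177 in the first kilobase to 63 in the last. Overlapping windows of equal direction had been merged beforehand, which takes overlaps, though not touching regions, out of the equal couples. Opposite pairs made up 33.2% of the 1764 adjacent couples within 10000 bp and 23.2% of those within 2000 bp.

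**Figure D3:**
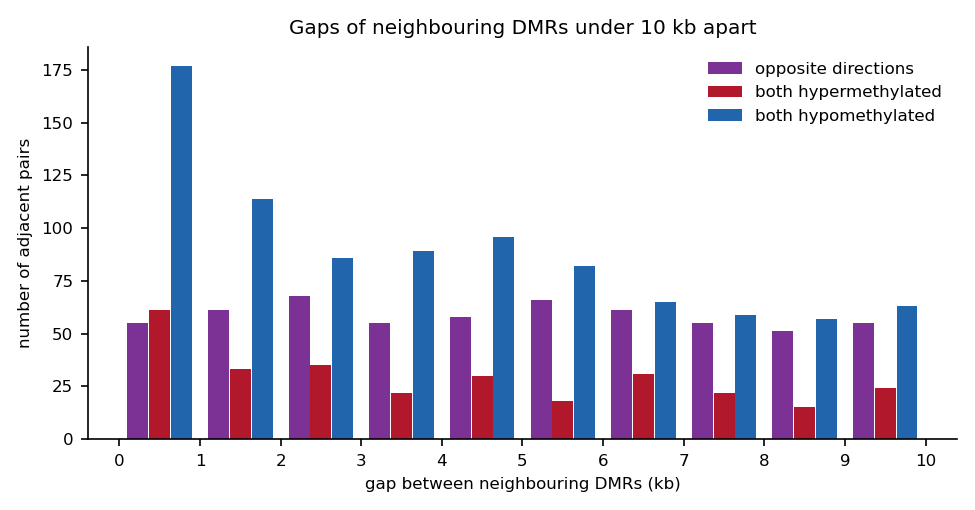
Number of adjacent DMR pairs (vertical axis) by gap in kilobases (horizontal axis, bins of 1000 bp) for opposite pairs and for couples of 2 hyper or 2 hypo DMRs. Opposite pairs stay between 51 and 68 per bin, and hypo couples decline from 177 to 63.

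In 11 pairs the members touched, 1 region ending at the base before the other began, and no members overlapped. Windows were 500 bp long and moved in steps of 250 bp, so the windows of touching members share no base although single fragments can span the border. Of these 11 pairs, 4 lay within a gene and 3 separated in both members. In Tspan5, the gene of a tetraspanin membrane protein, both touching members lay at an internal transcript start on chromosome 3. The hyper member (chr3:138439751-138440250) ran from 0.1 over 0.215 to 0.31 rpm in normal tissue and had 0.3, 0.34, 0.38, 0.37 and 0.32 rpm in Ad4, Ad4-1, Ad5, Ad6 and Ad7. The hypo member (chr3:138440251-138441000) ran from 0.55 over 0.625 to 0.79 rpm and had 0.36, 0.44, 0.34, 0.25 and 0.37 rpm. Only Ad4 at the hyper member reached down into the normal range, where N6 had 0.31 rpm. The adjacent regions had means of 0.213 and 0.642 rpm in normal tissue and of 0.342 and 0.352 rpm in adenoma.

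In Rbm20, the gene of a splicing factor of striated muscle, a hyper member with 2 CpG sites met a hypo member with 13. The hyper member (chr19:53926751-53927250) ran from 0.17 over 0.215 to 0.3 rpm in normal tissue, and Ad4, Ad4-1, Ad5, Ad6 and Ad7 had 0.53, 0.44, 0.33, 0.32 and 0.32 rpm. The hypo member (chr19:53927251-53927750) ran from 0.21 over 0.295 to 0.38 rpm, and the adenomas had 0.19, 0.15, 0.16, 0.16 and 0.22 rpm. The tissues separated at the hyper member and overlapped at the hypo member, where Ad7 lay above B1. Fabp4, which encodes the fatty acid-binding protein of adipocytes, was 1 of the 3 touching pairs with full separation; it stands outside the naming rule and was picked after its values were seen. Its hyper member at chr3:10205001-10205500 held 4 CpG sites and had a normal range of 0.21 to 0.27 rpm against 0.31 to 0.45 rpm in adenoma. The hypo member at chr3:10205501-10206000 held 17 CpG sites, with a normal range of 0.45 to 0.54 rpm against 0.3 to 0.4 rpm.

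The remaining 3 named touching pairs lay between genes. The pair with Utp18, a ribosome biogenesis gene, as the nearest coding start separated on both sides, with means of 0.212 ± 0.0354 and 0.352 ± 0.0559 rpm in normal tissue and adenoma at the hyper member and of 0.267 ± 0.0543 and 0.16 ± 0.0453 rpm at the hypo member (SD). The pairs nearest to Larp1, the gene of an RNA-binding regulator of translation, and to Xpa, a nucleotide excision repair gene, separated at the hypo member only. Near Larp1 the hyper member was the higher of the 2 in both tissues (0.467 and 0.786 rpm, against 0.372 and 0.244 rpm). At 0.5 rpm a 500 bp window rests on about 11.6 to 21.9 fragments and at 0.25 rpm on 5.78 to 11 fragments over the range of library depths, so counting alone gives a relative SD of 21.4% to 29.4% and 30.2% to 41.6%.

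**Figure D4:**
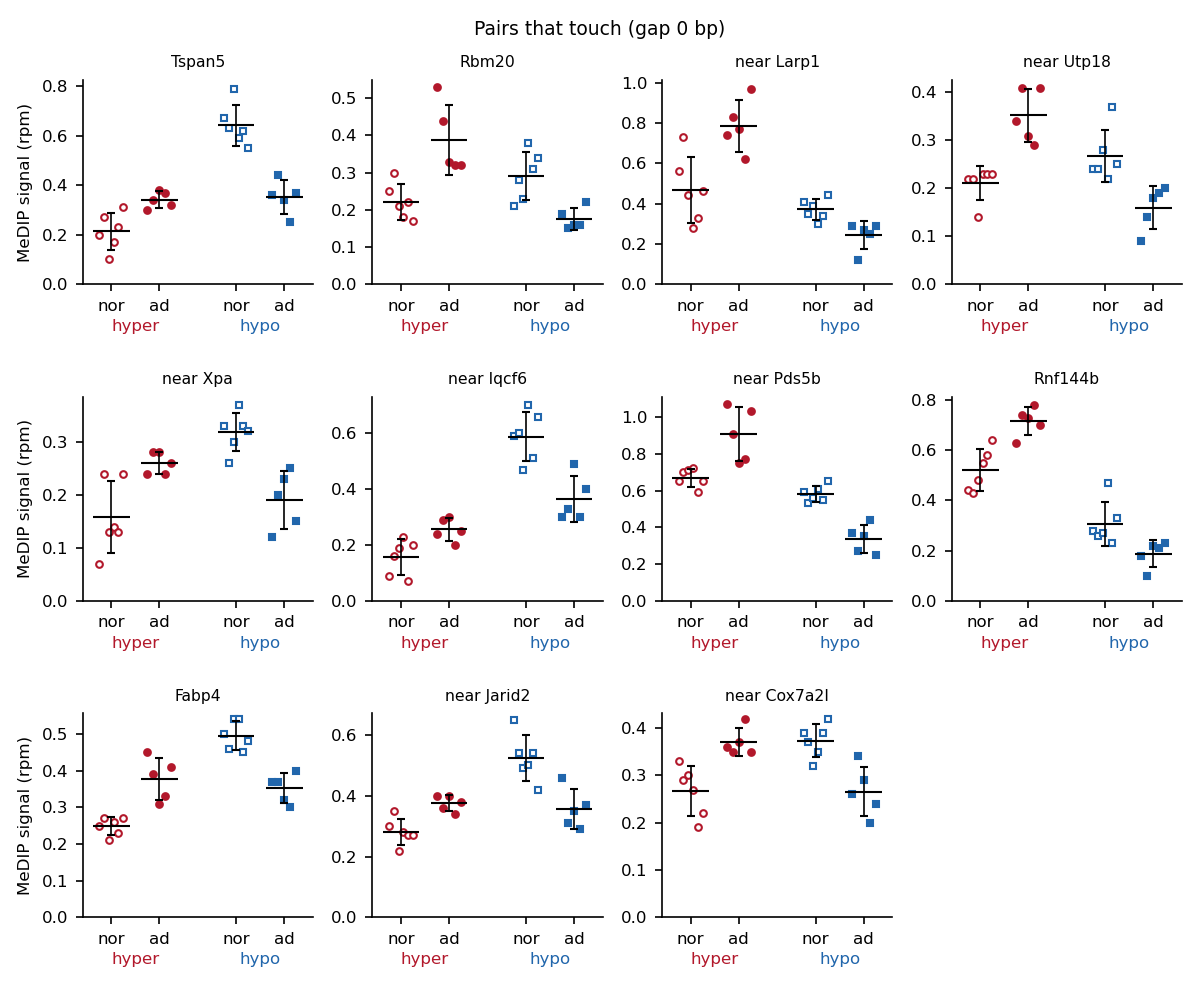
MeDIP signal (rpm) of both members in each sample for the 11 pairs whose members touch; open symbols are the 6 normal samples (nor), filled symbols the 5 adenomas (ad), lines the mean and bars 1 SD. The 2 tissues separate in both members in 3 of the 11 panels, and in the Tspan5 panel the adenoma means of the 2 members are 0.342 and 0.352 rpm.

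Both members lay in 1 annotated gene in 308 pairs (52.6%), and in 293 pairs that gene was protein-coding. The share was 60.8% (717) among the couples of equal direction. In 197 pairs both members were intergenic, in 68 pairs 1 member lay in a gene, and in 12 pairs the members lay in different genes. Of 281 pairs inside exactly 1 shared protein-coding gene, the hyper member was nearer the 5' end in 139. Members of both kinds were placed alike: 60.8% of hyper and 59.7% of hypo members overlapped a gene, 19.4% and 17.3% an exon, and 8.11% and 6.87% a promoter, taken as 1000 bp before to 500 bp after a transcript start. The other autosomal DMRs had 9.77% of hyper and 5.93% of hypo regions in promoters. Both members were intronic only in 183 of the pairs within a gene.

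Among genes with several pairs, picked after the counts were seen, Rab11fip4 held 5 pairs within its 107 kb; it encodes an effector of the Rab11 GTPase in vesicle recycling. Wdr96, a gene of a WD-repeat protein, held 4 pairs, 3 of which also lay in Gsto2, inside Wdr96 on the other strand. Ephb2, Chd7, Fryl and Pex14 held 3 each, as did the annotated gene Gm20388, which spans 4430 kb and contains other genes.

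A promoter was involved in 75 pairs: the hyper member alone in 34, the hypo member alone in 29 and both in 12. In 38 pairs both members lay in 1 protein-coding gene with at least 1 of them at a promoter of that gene, of which 7 among those of largest contrast follow. In Meis2, a homeobox gene of the TALE class, the hyper member near the 5' end, over coding exon, UTR and intron (chr2:115885751-115886750), had 0.42, 0.29, 0.26, 0.29 and 0.37 rpm in Ad4, Ad4-1, Ad5, Ad6 and Ad7 against 0.07 over 0.11 to 0.16 rpm in normal tissue. Its log2 ratio of 1.23 was the highest of all hyper members, and it held 30 CpG sites. The hypo member at an internal start 9750 bp away (chr2:115875501-115876000) ran from 0.24 over 0.325 to 0.43 rpm in normal tissue and had 0.22, 0.2, 0.21, 0.28 and 0.2 rpm in the adenomas. The tissues were apart at the hyper member, while at the hypo member Ad6 lay above N5.

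Rap1gap, which encodes an inhibitor of the small GTPase Rap1, had its hyper member at an internal start (chr4:137279751-137280250). There normal values ran from 0.66 over 0.92 to 1.54 rpm and Ad4, Ad4-1, Ad5, Ad6 and Ad7 had 1.49, 1.86, 1.62, 1.69 and 1.69 rpm. The hypo member in an intron (chr4:137272751-137273250) ran from 0.16 over 0.23 to 0.47 rpm and had 0.11, 0.13, 0.14, 0.07 and 0.05 rpm. N6 was the highest normal sample on both sides, and at the hyper member it lay above Ad4. In Scube3, the gene of a secreted signalling protein, both members were at starts 2000 bp apart, and normal and adenoma samples separated on both sides. Its hyper member (chr17:28288001-28288500) had a mean of 0.225 ± 0.0437 rpm in normal tissue and 0.378 ± 0.0817 rpm in adenoma. Its hypo member (chr17:28290501-28291000) had 0.38 ± 0.126 and 0.166 ± 0.023 rpm (SD).

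The hyper member held the promoter in Zfp467, a zinc finger gene (log2 ratios 0.96 and -0.7), and in Trpm1, a cation channel gene (0.75 and -0.81). The hypo member held it in Adcy6, an adenylyl cyclase gene (0.61 and -1.01), and in Prune, a phosphoesterase gene (0.68 and -0.88). In these 4 pairs the tissues separated at 1 member in 3 pairs and at no member in Adcy6. Of the 7 genes, the promoter was thus on the hyper side in 3, on the hypo side in 3 and on both sides in Scube3.

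Members in a row could alternate more than once. Most of the 550 runs were single pairs (521), 23 runs held 3 members and 6 held 4. The run of 4 with the largest contrast lay between genes on chromosome 16, where hyper, hypo, hyper and hypo members followed each other from 93424251 to 93447000. The log2 ratios were 0.47, -0.48, 0.72 and -1.35 in that order. At the last member Ad4, Ad4-1, Ad5, Ad6 and Ad7 had 0.04, 0.12, 0.07, 0.1 and 0.07 rpm against 0.1 over 0.285 to 0.45 rpm in normal tissue, where N5 alone reached the adenoma range. The input libraries, sequenced without antibody, had 0 (B3), 0.5 (N4) and 0.44 rpm (Ad7) there.

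The run in Gsto2, a glutathione transferase gene, held 4 members on chromosome 19 from 47946001 to 47960750, with log2 ratios of 0.55, -1.18, 0.41 and -0.77. The hypo member at chr19:47949251-47949750 had 0.14, 0.07, 0, 0.11 and 0.13 rpm in Ad4, Ad4-1, Ad5, Ad6 and Ad7 against 0.16 over 0.235 to 0.45 rpm in normal tissue. The run in Chd7, the gene of a chromatin remodelling helicase, went hypo, hyper, hypo and hyper from 8725251 to 8744500 on chromosome 4, with log2 ratios of -0.63, 0.45, -0.95 and 0.54. Its last member (chr4:8744001-8744500) held 29 CpG sites in an intron, with 0.83, 0.77, 0.96, 0.82 and 0.76 rpm in the adenomas against 0.45 over 0.58 to 0.67 rpm. The adenomas were apart from normal tissue at both hyper members of Chd7 and overlapped it at both hypo members.

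Gene lists for the tissue and the tumour held few pairs. A listed gene was counted as holding a pair when at least 1 member overlapped the gene or its promoter. Of 82 genes of the Wnt pathway, 3 held a pair: Ror2, a Wnt receptor (log2 ratios 0.63 and -0.69), Wnt2b, a ligand (0.57 and -0.48), and Wnt5b, a ligand of the non-canonical branch (0.48 and -0.55). Their median contrast of 1.05 stood beside 1.2 for all pairs. Of the Wnt2b pair only the hyper member lay in the gene. Of 52 genes of the intestinal epithelium, Ephb2 alone held pairs, 3 of them; it encodes an ephrin receptor that positions cells along the crypt and is a Wnt target. At the Ephb2 hyper member chr4:136256251-136256750, shared by 2 pairs, normal tissue ran from 0.12 over 0.175 to 0.29 rpm and Ad4, Ad4-1, Ad5, Ad6 and Ad7 had 0.3, 0.31, 0.26, 0.33 and 0.3 rpm. The hypo member on one side (chr4:136248001-136248500) had 0.272 ± 0.0556 and 0.156 ± 0.0365 rpm in normal tissue and adenoma, and the one on the other side (chr4:136266501-136267000) 0.285 ± 0.0493 and 0.166 ± 0.0527 rpm (SD). These 3 Ephb2 regions were intronic, and complete separation was found at the first hypo member only.

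Of 186 developmental transcription factor genes, 5 held pairs. Besides Meis2 these were Hoxa3, Hoxa5 and Hoxa6, all from 1 pair in the HoxA cluster, and Pbx2. In the HoxA pair the hypo member at the Hoxa5 start (chr6:52154251-52154750, 37 CpG sites) had 0.23, 0.27, 0.3, 0.52 and 0.21 rpm in Ad4, Ad4-1, Ad5, Ad6 and Ad7 against 0.31 over 0.635 to 0.79 rpm. The hyper member at the Hoxa6 promoter (chr6:52159501-52160000, 13 CpG sites) had 0.26, 0.37, 0.48, 0.49 and 0.45 rpm against 0.16 over 0.205 to 0.37 rpm. Both sides overlapped, through B3 and Ad6 at the first and through N6, Ad4 and Ad4-1 at the second. The Pbx2 pair had its hypo member at the Pbx2 start and its hyper member in Notch4, a Notch receptor gene, with separation on both sides and log2 ratios of -0.56 and 0.44.

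Cadherin genes gave 3 pairs, at Pcdh1 (0.48 and -0.66), Cdh13 (0.64 and -0.42) and Cdh23 (0.39 and -0.44). The Pcdh1 hypo member, with 43 CpG sites, had the highest level of the named members, at 2.34 ± 0.354 rpm in normal tissue and 1.46 ± 0.294 rpm in adenoma (SD). Of 34 stromal and muscle genes, Ano1 held a pair. Of 66 tumour suppressor and growth signalling genes, 1 held a pair, Fgfr2, but only through an annotation that reaches over the neighbouring gene Lhpp, in whose introns both members lay (0.69 and -0.53). The lists of DNA methylation and Polycomb genes (8 hyper and 10 hypo DMRs) and of immune cell genes (7 and 4) held 0 pairs. Members made up 13.2% of the DMRs in epithelial genes, 12% in cadherin genes, 9.09% in Wnt genes and 8.7% in stromal and muscle genes. The share was 4.17% in developmental transcription factor genes and 1.98% in tumour suppressor genes, beside 8.16% of all autosomal DMRs. The epithelial share came from 2 hyper and 3 hypo members, all in Ephb2, among 15 hyper and 23 hypo DMRs. No list held more than 3 members of either kind, so these shares rest on few regions.

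The 2 sides of a pair were alike in base composition on average and unlike in single pairs. Median CpG content was 1.6 sites per 100 bp in both kinds of member, against 0.851 over the autosomes, and the GC content was 49% in hyper and 47.6% in hypo members. The hyper member was denser in CpG in 235 pairs and the hypo member in 310, with 40 ties. At high density the order was the other way: 22 pairs had a hyper member of at least 4 sites per 100 bp beside a less dense hypo member, and 7 pairs the reverse. With a limit of 3 sites per 100 bp these counts were 43 and 31. That lower limit was reached by 7.94% of hyper and 5.46% of hypo members, beside 9.73% and 4.25% of the other autosomal hyper and hypo DMRs. The highest values were 8.2 sites per 100 bp in a hyper and 7.4 in a hypo member. Regions with at most 2 CpG sites made up 23 hyper members (4.06%) and 13 hypo members (2.29%), and 2 hyper members held 0 CpG sites. Among the other autosomal DMRs such regions were 4.65% of hyper and 2.89% of hypo regions.

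**Figure D5:**
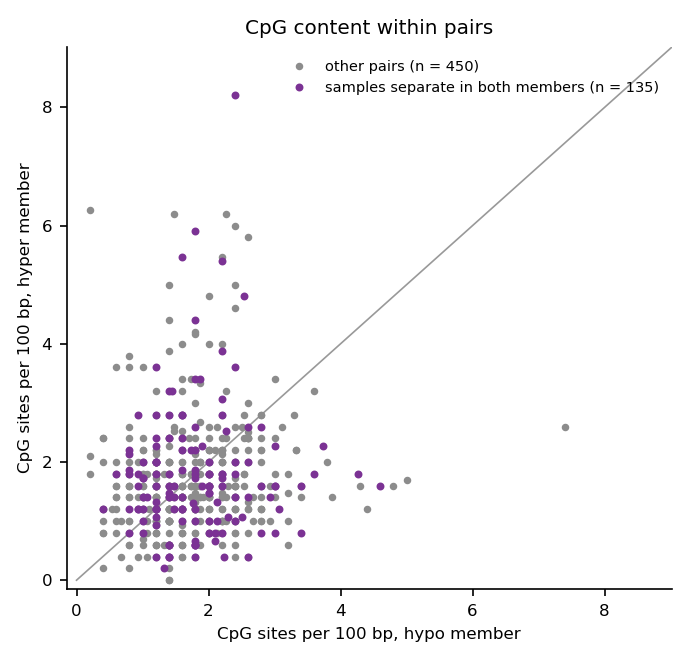
CpG sites per 100 bp of the hyper member (vertical axis) against the hypo member (horizontal axis) of each of the 585 pairs; the line marks equality and coloured points the 135 pairs in which the samples separate in both members. More pairs lie below the line (310) than above it (235), and the points above 4 sites per 100 bp are mostly hyper members.

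Pairs were compared tumour by tumour. Counting a pair as changed in an adenoma when its hyper member exceeded every normal sample and its hypo member fell short of every normal sample, Ad4 had 444 changed pairs, Ad4-1 469, Ad5 446, Ad6 430 and Ad7 481. In 135 pairs all 5 adenomas showed both changes, in 274 pairs 4, in 152 pairs 3, in 19 pairs 2 and in 5 pairs 1. Since the DMRs were called on these adenomas, this is a description of the lists. Within mice, both differences had the listed direction in 583 pairs in mouse 4, 558 in mouse 5 and 547 in mouse 6, and in 519 pairs in all 3. The 2 tumours of mouse 4 had a median absolute log2 difference of 0.229 over the members. Of the couples of tumours from different mice, Ad4 and Ad5 were nearer to each other (0.227) and the others lay between 0.233 and 0.263.

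Library series differed between samples, as the library names give it: series 4 held B1, B2, N4, Ad4 and Ad4-1, series 9 held N5, N6 and Ad5, series 10 held B3 and Ad6, and series 2 held Ad7. Within series 4 alone, both members passed the same ratio in 445 of the 585 pairs. The samples of series 4 were among those on which the DMRs were called, so this count is a description and no check on the series. In the input libraries (B3, N4 and Ad7, 1 per group) the mean level over hyper members was 0.204, 0.156 and 0.139 rpm and over hypo members 0.191, 0.158 and 0.154 rpm. Adenoma input was thus lower than the normal inputs at both kinds of member, by factors of 0.889 (N4) and 0.68 (B3) at hyper and 0.974 and 0.808 at hypo members. The MeDIP ratio was 1.54 at hyper and 0.605 at hypo members. Input differed in the 2 MeDIP directions in 124 pairs and in the 2 reverse directions in 144.

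APCMin and B6 normal intestine were tested against each other at the members, a contrast the lists did not use. All 6 normal samples had, however, served as 1 group in calling the DMRs. A region at which the APCMin normals stood near the adenoma level could therefore hardly have been listed. The test thus cannot decide whether such regions exist, and covers only differences left among the listed regions. No member was called by limma after Benjamini-Hochberg adjustment over all 13980 DMRs (0 of 1135 members, 0% of all DMRs, lowest adjusted p of a member 0.682). At an unadjusted p under 0.05 the count was 55 of 1135 members (4.85%), beside 4.63% of all DMRs. Of these 55 members, 13 were higher and 42 lower in APCMin, and over all DMRs 1.37% were higher and 3.26% lower. The shares among members were near those of all DMRs. The APCMin normals leaned to the adenoma side of both members in 152 pairs and away from it in both in 135. Mean levels in B6 and APCMin normal tissue were 0.322 ± 0.0173 and 0.313 ± 0.0196 rpm at hyper members and 0.505 ± 0.0145 and 0.485 ± 0.00345 rpm at hypo members (SD, n = 3 each). Genotype and library series overlapped, since B1, B2 and N4 shared series 4 while B3 and the other APCMin normals did not share one, so the 2 cannot be fully told apart.

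Of single members, a hyper member on chromosome 2 (158346001 to 158346500, nearest coding start Arhgap40) had the lowest p in this fit. It had 0.48 rpm in B6 and 0.233 rpm in APCMin normal tissue (log2 difference -0.92 ± 0.2 SE, limma adjusted p = 0.682). The hypo member at the Adcy6 start had 0.387 rpm in B6 and 0.63 rpm in APCMin normal tissue (log2 difference 0.65 ± 0.19 SE, limma adjusted p = 0.968), a difference away from the adenomas. Neither passed the adjusted threshold.

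At the gap limit, the widest pairs inside it were 9750 bp apart and the nearest outside it 10000 bp. Inside, the 3 of largest contrast were at Adh7, an alcohol dehydrogenase gene (0.84 and -0.95), Myo18b, an unconventional myosin gene (1.07 and -0.69), and Meis2. Just outside were pairs at Wbscr27 (0.56 and -0.83), at Eftud2, a spliceosome GTPase gene (0.79 and -0.58), and between genes near Zfhx3 (0.69 and -0.64). With a limit of 20000 bp there would be 1087 pairs. Chromosome 17 had the highest share of its DMRs in pairs, 12.6% (79 of 626), and chromosome 10 the lowest, 5.87% (45 of 766).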

How the data were processed

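MeDIP-seq was measured in 11 samples and input DNA in 3. The authors aligned reads to mm9 with Bowtie 0.12.5 (submitters' processing notes), extended them and deposited rpm (reads scaled to library size) with 2 decimals for windows of 500 bp in steps of 250 bp, and the same rpm for DMRs merged from them. The mean over the higher tissue was at least 0.25 rpm in every DMR. The deposited columns with the authors' own comparison (group means, variance, coefficient of variation, ratio and Wilcoxon p-value) were not used. The 7 RNA-seq samples were not analysed here, because their table as used here holds only descriptions of columns. Uniquely aligned reads ran from 13878615 to 26297510 per MeDIP library and from 3228908 to 5931425 per input library. Fragments per window were estimated with a fragment length of 300 bp, and cover counting error only.

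The members and gene lists were chosen with earlier results of these data known. Pairs, CpG content and gene overlap were computed with Python 3.11.15 on the NCBIM37 genome and GENCODE genes. Log2 ratios used group means with 0.05 rpm added, which understates changes of low regions. APCMin and B6 normal samples were compared at all DMRs with limma 3.58.1 in R 4.3.3 (empirical Bayes with trend on log2(rpm + 0.05), two-sided, Benjamini-Hochberg), tested first on simulated data. Replicates are separate mice, except Ad4 and Ad4-1, which were counted as 2 samples.

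Pairs named in the text are the 8 of largest contrast among those separated in both members with at least 0.5 rpm in the higher tissue of each, the 5 of smallest gap, the 8 of largest contrast in 1 protein-coding gene with a promoter member, the 3 longest alternating runs, up to 4 per gene list, and 3 on each side of the gap limit. Sequences on chromosome 18 were not shown. From these, 1 pair and the sequences of 1 other are not reported here. Adenomas and normals of mice 4, 5 and 6 are paired by the animal labels; over the members, deviations of paired samples from their group means correlated at -0.06 to 0.05. Alternatives changed the gap limit, the windows, filters, the added rpm, the ratio, the library series, the replicate block and each sample.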

Additional observations from a re-analysis of the deposited data

Results flagged for a closer look

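In 9 of the 83 groups of adenoma values examined (the 81 named members and the 2 means over all members), 1 adenoma stood apart from the other 4 by Dixon's criterion, which takes the gap to the nearest value over the range, with a limit of 0.71 for 5 samples. In unselected groups of normally distributed values chance alone gives about 1 in 20. The named members were chosen partly by these adenoma values, so the 9 groups cannot be judged against that rate. Ad4-1 was the one apart in 4 groups, Ad7 in 3, and Ad4 and Ad6 in 1 each. At the hypo member of Wnt2b, Ad4-1 had 0.21 rpm and the others 0.47 to 0.51. At the hypo member of Pcdh1, Ad4-1 had 0.94 rpm and the others 1.51 to 1.65. At the hypo member near Larp1, Ad4-1 had 0.12 rpm and the others 0.25 to 0.29. In Tcf4, Ad4-1 had 0.72 rpm at the hyper member (others 0.49 to 0.51) and Ad4, from the same mouse, had 0.53 rpm at the hypo member (others 0.33 to 0.38). Ad7 had 0.09 rpm at the hypo member of Cdh13 (others 0.25 to 0.28), 0.52 rpm at the hyper member of Scube3 (others 0.32 to 0.37) and 0.44 rpm at the second hyper member of Gsto2 (others 0.26 to 0.3). Ad6 had 0.28 rpm at the hypo member of Meis2 (others 0.2 to 0.22).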

How the results depend on the processing

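The number of opposite pairs followed the gap limit, with 116 pairs at 2000 bp, 297 at 5000 bp and 1087 at 20000 bp. From single 500 bp windows it was also 585. Merging joins only overlapping windows of equal direction, so this equality follows from the construction. It was 139 when only completely separated DMRs were joined and 77 when only DMRs with at least 0.5 rpm in the higher tissue were. These 2 filters leave fewer DMRs. Both members passed the ratio in 6 pairs at a ratio of 2, in 497 with 0.05 rpm and in 5 with 0.5 rpm added, and in 445 within library series 4. With the replicate block of 3 mice and 0.05 rpm added the count was 387, against 473 in the same 7 samples with neither. The difference thus does not show the effect of the block alone. Leaving out 1 sample gave 537 to 568. Pairs separated in both members numbered 159 to 209 without 1 sample, the highest without N6. Leaving out a sample can only keep or raise this count. In the comparison of normal tissues, 0 members were called under every alternative run, 0 to 0 with 1 sample left out (without B1, 1 DMR that was no member was called); at an unadjusted p under 0.05 the count was 39 to 66 with 1 sample left out. Protein-coding genes alone gave 293 pairs in 1 gene, and 250 bp added on each side gave 266 pairs with a denser hyper member. All 1134 log2 ratios of named members under an alternative kept their sign. The members were listed by that sign in these samples, and rpm added to both means cannot reverse it, so nothing is read from this. Of these ratios, 81 moved by over 1 SD of the adenomas, 64 of them with 0.5 rpm added. Regions at 0.25 rpm rest on few fragments, and bulk signal does not give percent methylation.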
